A study of Mus musculus with 8 samples.

Results

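A set of 10 genes of myeloid C-type lectin receptors, Clec4a1, Clec4a2, Clec4a3, Clec4d, Clec4e, Clec4n, Clec5a, Clec7a, Clec10a and Clec12a, was followed in mouse gastrocnemius muscle. They were taken by name from the deposited gene table, where all 10 of them are listed among 30743 genes. RNA came from 4 double transgenic (DTG) mice and 4 single transgenic (MckrtTA) controls. The DTG mice carried the 1256[3Emut]Mck-rtTA and TRE-myrAkt1 transgenes, and the controls carried 1256[3Emut]Mck-rtTA alone. The labels give the strain of every mouse as Myo L8 and the age as 4 months, they state that the DTG mice were male and the controls littermates, and mice of both groups drank doxycycline at 0.5 mg/ml for 2 weeks and were fasted overnight before collection. The first transgene places the doxycycline-dependent activator under a muscle creatine kinase promoter, so the activated Akt1 of the second is made in muscle fibres, and blood or connective tissue cells of the muscle are not its target. No library of mice that carried TRE-myrAkt1 alone is in the series.

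C-type lectin receptors are surface proteins with a carbohydrate recognition fold, and macrophages, monocytes, neutrophils and dendritic cells use them to sense microbes and damaged cells. The activating receptors recruit the kinase Syk, either through a motif in their own tail, as Clec7a does, or through the adaptor that Fcer1g encodes (Clec4n, Clec4d and Clec4e) or those of Tyrobp and Hcst (Clec5a), and Syk then works through Card9. Inhibitory receptors such as Clec4a2 and Clec12a carry a tail motif that recruits the phosphatases of Ptpn6 and Ptpn11, and Clec10a binds galactose-type sugars and takes up glycoproteins. Resting muscle holds few cells of the kinds that carry these receptors, and their number rises when muscle is injured or remodelled.

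Each deposited value is an estimate of a gene's reads, scaled so that the 75th percentile over all genes is 1000 in each library, and this scaled estimate is named signal below. The DTG libraries held 46.0 to 54.0 M assigned reads, each worth a signal of 1.25 to 1.68, and the controls held 45.6 to 58.6 M, each worth 2.25 to 2.97. Akt1, the gene that the transgene supplies, had a log2 fold change of 3.50 (SE 0.19) and was called higher. Ckm, the muscle creatine kinase, was abundant in every library, with a lowest signal of 427619. Labels place DTG mice 253 and 283 and MckrtTA mice 255 and 281 on lane 1. DTG mice 282 and 306 and MckrtTA mice 280 and 307 are on lane 8. The run names also carry a prefix that divides the libraries in the same way. Lane and whatever that prefix marks cannot be told apart. Mouse 253 stood apart from the other DTG mice in many genes, the receptor genes among them, so values that it moves by over 1.5-fold are given without it too.

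Of the members, 9 lie on chromosome 6. In mm10 coordinates, Clec4a1, Clec4a3, Clec4a2, Clec4n, Clec4d and Clec4e fall within 368 kb, from 122921848 to 123289871. Clec12a and Clec7a fall within 123 kb, from 129350244 to 129472777, and Clec5a lies apart from both groups, from 40574898 to 40585805. Clec10a is the one member elsewhere, on chromosome 11 from 70166623 to 70170836.

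Promoter sequences from RefSeq (GRCm38.p6, 250 bases before to 50 after a start site) were matched by symbol for 8 of the 10 genes. The sequences of 4 are shown, since Clec4d and Clec4e are neighbours whose order among the DTG mice stood out, and Clec12a and Clec7a are neighbours with a large difference between the groups. Capitals mark GAGGAA on either strand, the core that the myeloid factor PU.1 is known to bind.
Clec4d, chr6:123261857-123262156, plus strand: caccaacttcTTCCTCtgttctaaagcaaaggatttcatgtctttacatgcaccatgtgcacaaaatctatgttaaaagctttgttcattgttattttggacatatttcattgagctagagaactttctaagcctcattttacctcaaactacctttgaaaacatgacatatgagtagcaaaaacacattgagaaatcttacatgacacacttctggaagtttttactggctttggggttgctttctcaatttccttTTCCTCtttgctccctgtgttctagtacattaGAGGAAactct
Clec4e, chr6:123289822-123290121, minus strand: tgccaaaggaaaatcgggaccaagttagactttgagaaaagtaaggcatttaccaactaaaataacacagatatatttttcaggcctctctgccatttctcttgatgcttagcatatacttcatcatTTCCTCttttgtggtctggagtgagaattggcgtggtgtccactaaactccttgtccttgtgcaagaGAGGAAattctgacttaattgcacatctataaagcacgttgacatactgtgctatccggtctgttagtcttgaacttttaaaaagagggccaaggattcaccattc
Clec12a, chr6:129349994-129350293, plus strand: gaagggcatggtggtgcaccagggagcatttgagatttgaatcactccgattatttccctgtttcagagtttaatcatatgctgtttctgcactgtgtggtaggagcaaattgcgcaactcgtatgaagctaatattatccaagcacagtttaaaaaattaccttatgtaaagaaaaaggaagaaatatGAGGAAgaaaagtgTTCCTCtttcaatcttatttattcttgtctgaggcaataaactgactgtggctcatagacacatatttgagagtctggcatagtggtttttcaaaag
Clec7a, chr6:129472730-129473029, minus strand: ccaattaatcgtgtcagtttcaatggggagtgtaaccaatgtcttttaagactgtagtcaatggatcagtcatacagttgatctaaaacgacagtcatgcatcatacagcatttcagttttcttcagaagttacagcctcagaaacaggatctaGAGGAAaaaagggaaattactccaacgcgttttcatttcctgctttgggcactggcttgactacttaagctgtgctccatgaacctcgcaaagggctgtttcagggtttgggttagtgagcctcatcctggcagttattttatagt
GAGGAA was present in 7 of the 8 genes, all but Clec4a2, and in 31.3% of the 27025 genes of the promoter table. In Clec4e its nearest match to the start site begins 56 bases before it, in Clec12a 47 bases before, and in Clec7a 96 bases before. Clec7a and Clec4a3 each have a further listed start site, and a match in any window of a gene counted. From the further site of Clec7a the match begins 90 bases before, and 1 window of Clec4a3 held no match. A further 6 motifs were searched on both strands. The longer PU.1 form GAGGAAGT, which contains GAGGAA, was in 0 of the 8 (3.69% of all genes), and GGAAGT, which overlaps it, was in Clec4a2 and Clec4d (26.5%). The C/EBP-type motif TTGCNNAA was in Clec4e and Clec12a (12.2%), and its longer relative TTGCNNCAA in none of the 8 (2.38%). The AP-1 motif TGANTCA was in Clec4a2 and Clec12a (8.97%), and TATAAA was in Clec4a2, Clec4e, Clec5a and Clec7a (15.7%). A match describes the letters of the window and is not a binding site shown by these data.

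Transcripts of 9 of the 10 receptor genes were higher in DTG muscle than in control muscle, by log2 fold changes of 3.96 to 5.26, and in each of the 9 every DTG mouse stood above every control. These sizes depend on the scale, since over all 10 members they ran from 2.67 to 5.26 as given here, from 2.70 to 7.12 with 1 in place of 10 added before the logarithm, from 2.26 to 4.38 with 50 added, and from 3.60 to 6.07 with the libraries scaled to equal totals. Clec10a, the one exception, had the highest control level of the set and the smallest difference. A gene was called here when the limma adjusted p over all 15073 genes tested was under 0.005 and the fold was 2 or more, on log2(signal + 10), a scale that understates the change of low genes. By that rule 14.6% of all genes tested were called higher and 16% were called lower, and in 22.2% every DTG mouse stood above every control. The median log2 fold change of the 10 members was 4.92, against -0.26 for all genes tested. All 10 passed the filter on low values, but Clec4d, Clec4e, Clec4n and Clec5a did so through their DTG libraries alone, so for these 4 a difference was built into the passing. In bulk muscle, more cells of a type and more RNA per cell cannot be told apart.

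**Figure D1:**
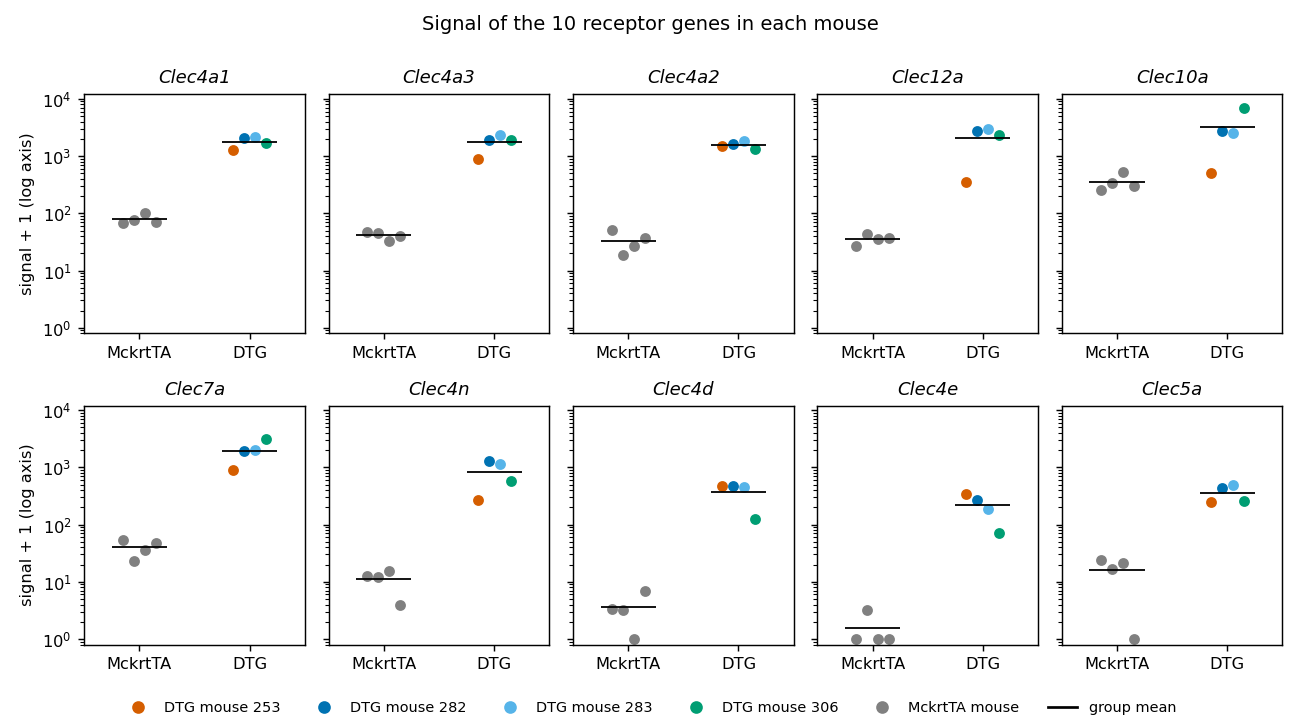
Signal plus 1 of each receptor gene (log axis) in the 4 MckrtTA mice (grey points) and the 4 DTG mice (coloured by mouse), with the group mean as a bar. The groups are separate for 9 genes, and for Clec10a the point of DTG mouse 253 lies within the control range of 259 to 520.

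Clec4n, which encodes the fungal mannan receptor dectin-2, had a signal of 271 in mouse 253, 1278 in mouse 282, 1149 in mouse 283 and 568 in mouse 306. In the controls it stood at 11.6 in mouse 255, 11.2 in mouse 280, 14.3 in mouse 281 and 2.97 in mouse 307, the last being worth 1 read. The groups did not overlap, although the DTG mice themselves spanned more than a 4-fold range. Its log2 fold change was 5.17 (SE 0.46, adjusted p = 1.6e-05, limma).

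Clec4d encodes a receptor that pairs with Clec4e. Its signal was 466, 463 and 447 in DTG mice 253, 282 and 283, and 122 in mouse 306. The controls stood at 2.32 in mouse 255, 2.25 in mouse 280, 0 in mouse 281 and 5.93 in mouse 307, together 4 reads. DTG mice 253, 282 and 283 were thus nearly level and mouse 306 was far below them, yet still above every control. The log2 fold change was 4.78 (SE 0.42, adjusted p = 1.4e-05, limma). Counted as reads, 1065 in the DTG libraries against 4 in the controls gave a ratio of 143 after scaling (95% exact interval for counting error alone, 55.7 to 526).

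Clec4e encodes Mincle, which senses mycobacterial glycolipids and a protein released from dying cells. It stood at 342 in mouse 253, 263 in mouse 282, 189 in mouse 283 and 68.9 in mouse 306. Of the 4 controls, 3 were at 0 and mouse 280 had a single read, worth 2.25. Clec4e was thus not detectable or nearly so in control muscle at this depth and was measured in each DTG mouse. The 601 DTG reads against 1 control read gave a scaled ratio of 323 (95% exact interval for counting error alone, 57.7 to 12764). The fitted log2 fold change was 4.23 (SE 0.42, adjusted p = 2.9e-05, limma), and as for Clec4d it depends on the amount added before the logarithm.

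Clec7a encodes dectin-1, the beta-glucan receptor. Its signal was 886 in mouse 253, 1892 in mouse 282, 1989 in mouse 283 and 3067 in mouse 306. The controls had 53.4 in mouse 255, 22.5 in mouse 280, 34.4 in mouse 281 and 47.5 in mouse 307. All DTG values lay far above all control values, and mouse 306, which was lowest for Clec4d and Clec4e, was highest here. The log2 fold change was 5.23 (SE 0.36, adjusted p = 4.4e-06, limma).

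Clec5a, the receptor that works with the Tyrobp adaptor, reached 244 in mouse 253, 432 in mouse 282, 496 in mouse 283 and 256 in mouse 306. Control mice 255, 280 and 281 stood at 23.2, 15.7 and 20.1, and mouse 307 was at 0. Mice 253 and 306 were close to each other and below mice 282 and 283. The log2 fold change, 3.96 (SE 0.41, adjusted p = 3.3e-05, limma), was the smallest of the 9 that were called.

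Clec4a2 encodes the inhibitory receptor DCIR. It was the steadiest member among the DTG mice, at 1468 in mouse 253, 1611 in mouse 282, 1821 in mouse 283 and 1341 in mouse 306. Its control values were 50.8 in mouse 255, 17.4 in mouse 280, 25.8 in mouse 281 and 35.6 in mouse 307. The group means were 1560.0 ± 206 (SD, n = 4) and 32.4 ± 14.4 (SD, n = 4). With a log2 fold change of 5.26 (SE 0.24, adjusted p = 7.1e-07, limma), it had the largest difference of the 10 on this scale, where Clec7a, Clec12a and Clec4n followed within 0.10. Its estimates in control mice 255 and 280 are not whole reads and become whole, within 0.02, when those of its neighbour and near copy Clec4a4 are added. The sum of both genes was 1574 ± 206 (SD, n = 4) in DTG and 33.7 ± 14.5 (SD, n = 4) in MckrtTA muscle, so the split left the levels almost as they were.

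Clec12a, an inhibitory receptor for uric acid crystals and dead cells, had a signal of 349 in mouse 253 against 2699 in mouse 282, 2992 in mouse 283 and 2287 in mouse 306. Control values were 25.5 in mouse 255, 42.7 in mouse 280, 34.4 in mouse 281 and 35.6 in mouse 307. Mouse 253 was thus at 0.129 of the median of the other DTG mice, the lowest such ratio in the set, and still above all controls. The log2 fold change was 5.19 (SE 0.60, adjusted p = 6.5e-05, limma), and 5.91 (adjusted p = 2.4e-08, limma) without mouse 253.

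Clec4a1 and Clec4a3 are relatives of Clec4a2 in the same gene cluster. Clec4a1 stood at 1250.5 in mouse 253, 2043 in mouse 282, 2114 in mouse 283 and 1717 in mouse 306, and its controls at 67.3 in mouse 255, 74.2 in mouse 280, 100.3 in mouse 281 and 68.2 in mouse 307. For Clec4a3 the DTG values were 871, 1924, 2334 and 1898 in mice 253, 282, 283 and 306, and the control values were 46.4, 44.9, 31.5 and 38.6 in mice 255, 280, 281 and 307. Neither gene overlapped between the groups, and mouse 253 was the lowest DTG mouse for both. The log2 fold changes were 4.34 (SE 0.20, adjusted p = 7.1e-07, limma) for Clec4a1 and 5.05 (SE 0.29, adjusted p = 1.9e-06, limma) for Clec4a3.

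Clec10a, the galactose-type lectin, did not pass the test. The DTG mice ran from 501 in mouse 253 through 2562 in mouse 283 and 2731 in mouse 282 to 6833 in mouse 306. The controls stood at 259 in mouse 255, 336 in mouse 280, 520 in mouse 281 and 295 in mouse 307. Mouse 253 therefore lay inside the control range and the other DTG mice lay above it, and the spread among the DTG mice was the widest of any member. The log2 fold change of 2.67 (SE 0.66, adjusted p = 0.0052, limma, 95% interval 1.19 to 4.15) missed the p threshold narrowly. Without mouse 253 it was 3.38 (adjusted p = 1.6e-05, limma) and the gene was called higher, as it was in lane 8 alone, with 3.74 (adjusted p = 0.00034, limma). In lane 1 alone, which holds mouse 253, it was 1.60. In 5 libraries in which Clec10a and Mgl2, its near copy, were both low enough to read and not whole, their estimates summed to whole reads in 2 of them (mice 253 and 307), and Clec10a was whole in 0 of 8 libraries, so its reads were partly shared out by estimate. The sum of Clec10a and Mgl2 was 955, 3350, 2955 and 7804 in DTG mice 253, 282, 283 and 306, and 490 to 779 in the controls. On the sum the groups did not overlap. The sum holds Mgl2 as well, which was itself called higher, so it does not show that Clec10a alone was separate.

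Lanes were compared within themselves as well, with 2 mice per group in each. Over the members the median log2 fold change was 4.68 in lane 1, with a range of 1.60 to 5.39, and 4.88 in lane 8, with a range of 3.73 to 5.81. All 10 were called in lane 8 and 2 were called in lane 1, where 54 of all 15073 genes were called higher, against 2505 in lane 8.

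**Figure D2:**
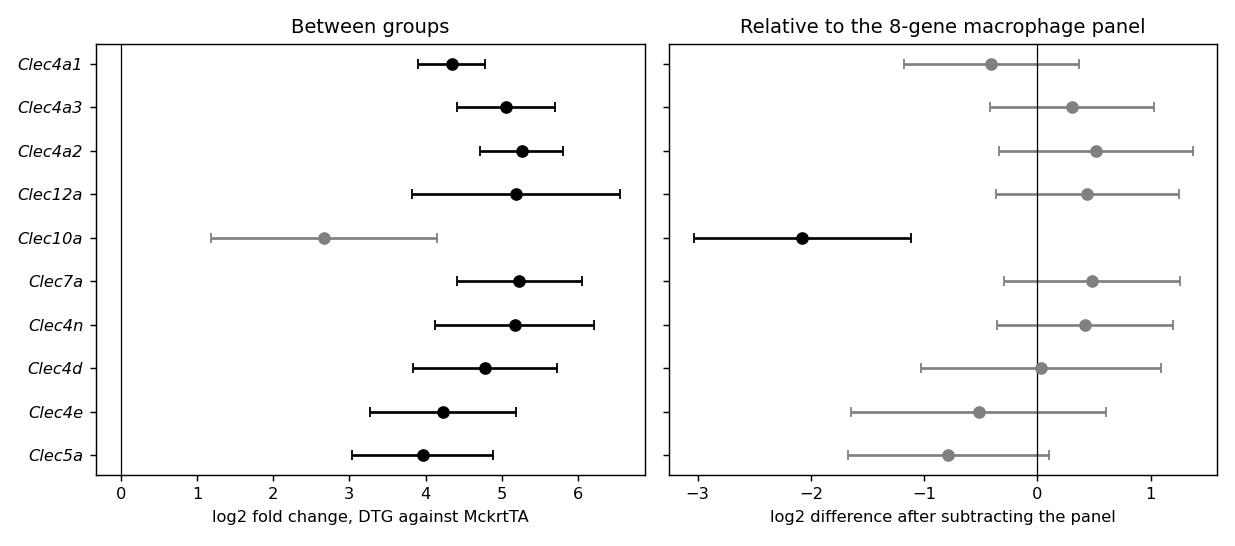
Left, log2 fold change of each receptor gene between DTG and MckrtTA muscle with its 95% interval. Right, the same after the mean log2 signal of 8 macrophage genes was subtracted in each library. Black points passed the test and grey points did not. On the left Clec10a, at 2.67, is the point that did not pass, and on the right Clec10a, at -2.08, is the one that did.

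Levels can be compared between genes only per length, here as signal per kb of the RefSeq transcript listed for each gene. In control muscle Clec10a was the most abundant receptor transcript, at 243 ± 79.9 per kb (SD, n = 4), beyond the spread of the next, Clec4a1, at 49.7 ± 9.95. Clec4a2 (35.3 ± 15.6), Clec4a3 (31.0 ± 5.23), Clec7a (17.4 ± 6.08), Clec12a (13.8 ± 2.82), Clec4n (8.16 ± 3.99), Clec5a (3.94 ± 2.75), Clec4d (1.98 ± 1.86) and Clec4e (0.22 ± 0.45) followed, all as signal per kb in control muscle. Of these neighbours in the order, the step from Clec4a3 to Clec7a exceeded the sum of their SDs, and no other step after Clec4a1 did. Steps were judged on the group means and not within each mouse. In DTG muscle the order of the signal per kb was Clec10a (2171 ± 1824), Clec4a2 (1699 ± 224), Clec4a3 (1351 ± 480), Clec4a1 (1143 ± 253), Clec7a (862 ± 393), Clec12a (832 ± 476), Clec4n (664 ± 388), Clec4d (283 ± 128), Clec5a (95.2 ± 33.7) and Clec4e (85.6 ± 46.1). There the step from Clec4d to Clec5a exceeded the sum of their SDs and the others did not. The order of Clec10a and Clec4a2 was not shared by the DTG mice. Clec4a2 was above Clec10a per kb in mice 253 and 283 and below it in mice 282 and 306.

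The make-up of the set differed between the groups. Clec10a took 59.1% ± 8.30 (SD, n = 4) of the summed signal per kb in control muscle, with 49.0% in mouse 255, 61.6% in mouse 280, 68.8% in mouse 281 and 56.8% in mouse 307. In DTG muscle its share was 20.9% ± 14.0 (SD, n = 4), with 7.30% in mouse 253, 18.9% in mouse 282, 16.9% in mouse 283 and 40.4% in mouse 306. Every control share was above every DTG share. Clec4n went from 1.99% ± 0.89 to 7.01% ± 3.18 (SD, n = 4 each) and Clec7a from 4.46% ± 1.97 to 9.15% ± 1.63 (SD, n = 4 each), while Clec4a1 was at 12.3% ± 0.33 in control and 13.2% ± 3.08 in DTG muscle. These shares sum to a whole, so one that falls raises the others, and they were not tested.

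**Figure D3:**
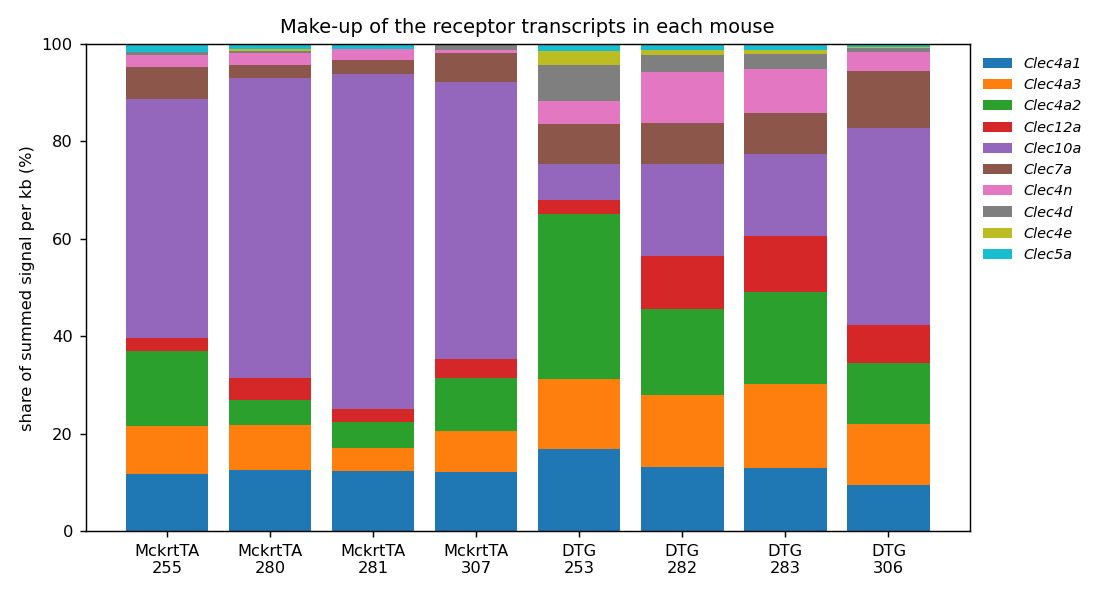
Share of each receptor gene in the summed signal per kb of the 10 genes, 1 bar per mouse. The Clec10a part fills 49.0% to 68.8% of the control bars and 7.30% to 40.4% of the DTG bars.

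The members were next set against general macrophage transcripts of the same libraries. This takes out the scaling of each library only in part, since the amount added before the logarithm is not scaled with the signal. The scaling cancels least for genes near the floor, such as Clec4d and Clec4e in the controls. Other scalings were not tried in this comparison. The panel of 8 genes (Adgre1, listed as Emr1, with Csf1r, Cd68, Fcgr1, Mertk, Lyz2, Aif1 and Mpeg1) had a summed signal of 3690 to 4510 in the controls and 42841 to 181529 in DTG muscle, with mouse 253 lowest, and all 8 were called higher. Its genes did not move alike, since their log2 fold changes ran from 1.85 for Mertk to 6.33 for Mpeg1, and relative to the panel mean Mertk was itself called lower, at -2.90, and Fcgr1 and Mpeg1 higher, at 1.52 and 1.58. After the panel mean was subtracted, 97.1% of all genes tested were called lower in DTG muscle and 0.073% were called higher. Among the members 1 was called lower by limma, 0 were called higher (0 also at an unadjusted p under 0.05) and 9 were not called. The 1 was Clec10a, with a difference of -2.08 (SE 0.46, adjusted p = 0.00021, limma, 95% interval -3.04 to -1.12). Relative to the panel its log2 level was 0.19 to 1.18 in the controls and -2.37 to -0.05 in the DTG mice, without overlap. It stayed called without any 1 mouse, with differences of -2.54 to -1.77, and was not called within either lane alone (-2.77 and -1.39).

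For the other 9 the difference relative to the panel and its 95% interval were 0.52 (-0.34 to 1.37) for Clec4a2, 0.49 (-0.29 to 1.26) for Clec7a, 0.44 (-0.37 to 1.25) for Clec12a and 0.42 (-0.35 to 1.20) for Clec4n. They were 0.31 (-0.42 to 1.03) for Clec4a3, 0.03 (-1.03 to 1.09) for Clec4d, -0.40 (-1.17 to 0.37) for Clec4a1, -0.52 (-1.65 to 0.61) for Clec4e and -0.79 (-1.68 to 0.10) for Clec5a. With all mice in, each interval includes 0. That does not show that the receptors moved by the same factor as the panel. The intervals reach past a 2-fold difference in all 9. Without mouse 253 the differences were -0.64 for Clec4a1 (adjusted p = 0.0023, limma) and 0.77 for Clec12a (adjusted p = 0.0017, limma). They were -1.20 for Clec4e (adjusted p = 0.0062, limma) and -1.03 for Clec5a (adjusted p = 0.016, limma). Clec4a2, Clec4a3, Clec4d, Clec4n and Clec7a had adjusted p of 0.13 to 0.54 (limma), and none of the 9 was called. The sign for Clec4d, Clec4e and Clec5a changes with the amount added before the logarithm, and with 50 added those of Clec4a2, Clec4a3, Clec4n and Clec12a also turn to below 0, so of the 9 only Clec4a1 and Clec7a keep theirs under each amount added.

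Among the DTG mice the receptors did not keep one order. Mouse 253 was lowest for 7 members and highest for Clec4d and Clec4e, and its ratio to the median of the other 3 DTG mice ran from 0.129 for Clec12a, 0.183 for Clec10a and 0.236 for Clec4n, through 0.445 for Clec7a, 0.452 for Clec4a3, 0.566 for Clec5a and 0.612 for Clec4a1, to 0.911 for Clec4a2, 1.04 for Clec4d and 1.81 for Clec4e. Mouse 306, against the mean of mice 282 and 283, stood at 0.267 for Clec4d, 0.305 for Clec4e, 0.468 for Clec4n and 0.804 for Clec12a, and at 1.58 for Clec7a and 2.58 for Clec10a. The macrophage panel was lowest in mouse 253, at 0.287 of the median sum of the other DTG mice. The summed signal of 6 monocyte markers was highest in mouse 253, at 18757, with 6976 in the lowest DTG mouse, and that of 12 neutrophil markers was also highest there, at 3860, with 1963 in the lowest. The part of these cell types in the order of the receptors was not tested.

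**Figure D4:**
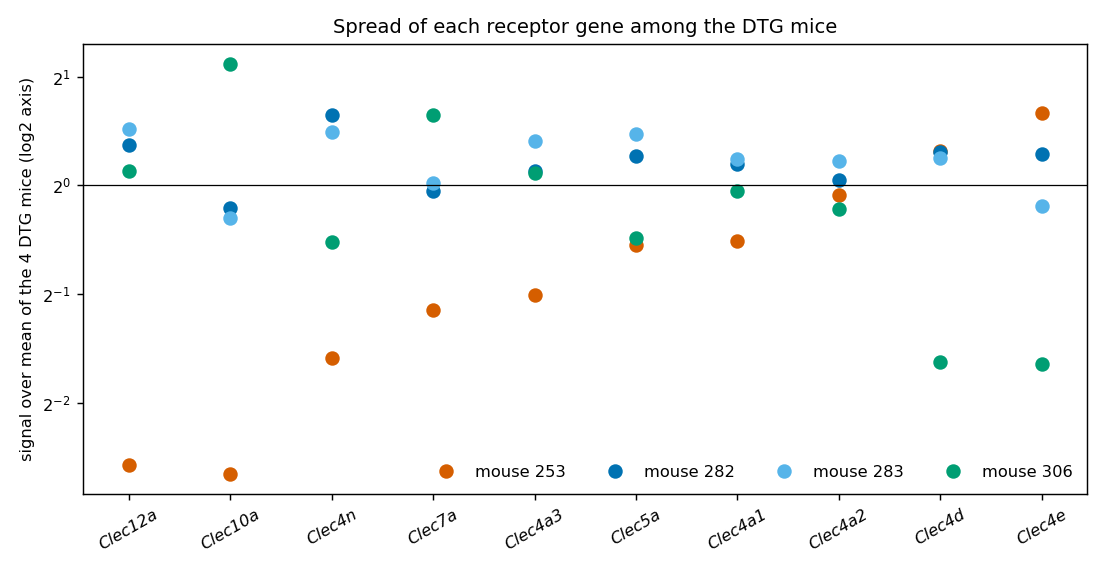
Signal of each receptor gene in each DTG mouse over the mean of the 4 DTG mice (log2 axis), with genes ordered by the ratio of mouse 253 to the median of the others, from 0.129 for Clec12a to 1.81 for Clec4e. Mouse 253 moves from the bottom on the left to the top on the right, and mouse 306 is lowest for Clec4d and Clec4e.

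The genes through which these receptors signal were mostly higher in DTG muscle. Of 29 in the list, all tested, 19 were called higher, 2 lower and 8 were not called, with a median log2 fold change of 2.12 against -0.26 over all genes. Of the 19, 3 passed the filter on low values through DTG libraries alone, among them Hcst and Fgr, so that a difference was built into their passing. The adaptor genes rose, with log2 fold changes of 4.82 for Fcer1g and 2.53 for Hcst, and Tyrobp with them. Fcer1g went from a signal of 140 ± 29.1 to 4347 ± 1289 and Tyrobp from 132 ± 13.9 to 4707 ± 1388 (SD, n = 4 each). Hcst stood at 0 to 4.64 in the controls and 23.6 to 96.3 in the DTG mice. Syk itself rose by 3.27 and its partner Card9 by 2.93 on the same log2 scale. Bcl10 (0.25, adjusted p = 0.035, limma) and Malt1 (0.19, adjusted p = 0.19, limma), which act with Card9 and are made in many cell types, were not called, and neither was Prkcd (0.38, adjusted p = 0.21, limma), the kinase that acts on Card9.

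Kinases of the Src family typical of myeloid cells rose, Fgr by 5.49 and Lyn by 2.12, and so did Btk by 4.25, the exchange factor gene Vav1 by 4.80, the scaffold gene Lcp2 by 4.89 and the phospholipase gene Plcg2 by 2.84, all as log2 fold changes. The phosphatase of the inhibitory receptors that blood cells make, Ptpn6, rose by 4.51, and the lipid phosphatase gene Inpp5d by 3.42. Ptpn11, its widely made relative, fell by 1.07 (adjusted p = 8.3e-05, limma). The 2 calls of lower genes in the list depend on the scaling, since with equal totals 0 were called lower, and with either of the other scalings 1 was. Within lane 1 alone 2 of the 29 were called higher.

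Other genes of the C-type lectin family were more mixed. Of 62 listed, 61 were measured and 43 tested, of which 24 were called higher, 2 lower and 17 were not called, with a median log2 fold change of 1.75. Of the 43 tested, 16 passed the filter through DTG libraries alone, Cd72, Clec4b1, Olr1, Clec9a and Sele among them, and 14 of these 16 were called higher, so those calls were in part built in. The mannose receptor gene Mrc1 rose by 4.48 and Cd72 by 4.42, the latter with 33.7 in mouse 253 and up to 764 in another DTG mouse, and by 5.43 without mouse 253 (adjusted p = 2.3e-07, limma). In the cluster around Clec4n, Clec4b1 rose by 3.16, and Clec4a4 and Clec4b2 were too low to test. Clec4f, also on chromosome 6, was at 0 in all libraries and was not tested. Mgl2, the near copy of Clec10a, rose by 1.32 (SE 0.26, adjusted p = 0.0015, limma), from 224 to a mean of 609. Near Clec7a, Olr1 rose by 2.12 and Clec9a, a marker of one dendritic cell kind, by 1.80, whereas Clec1a (-0.29, adjusted p = 0.11, limma) was not called and Clec12b was too low to test.

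Vessel adhesion lectins rose too, with Selp at 2.33 and Sele at 2.25. Thbd, an anticoagulant receptor of vessels that some monocytes also make, rose by 2.99, with a signal of 89216 in mouse 253 and 6764 to 12085 in the other DTG mice. Without mouse 253 its log2 fold change was 2.17 (adjusted p = 4.4e-06, limma). The endothelial lectin gene Clec14a (-0.31, adjusted p = 0.20, limma) was not called. Chodl (-1.37) and Clec18a (-1.01), neither of them known as a myeloid receptor, fell, and with equal totals neither fall was called. Without mouse 253 the family had 29 genes called higher, and without any other 1 mouse it had 18 to 21. The call was lost on leaving out any of 2 mice for Cd72, 3 for Mgl2, 5 for Thbd and 6 for Clec9a, and any 1 of the 8 for Clec18a. With 1 mouse left out, their log2 fold changes were 4.05 to 5.43 for Cd72, at the lowest 1.07 for Mgl2, 2.17 to 3.41 for Thbd, 1.54 to 2.13 for Clec9a and -1.09 to -0.85 for Clec18a.

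In marker lists of other cells that can carry these receptors, most genes tested were also called higher in DTG muscle. Among the DTG mice, the sums of the monocyte and neutrophil lists did not keep the order of most members, as given above. Of the monocyte list, 5 of 6 genes were called higher, among them the chemokine receptor gene Ccr2 (5.44), and its summed signal was 6976 to 18757 in DTG against 171 to 708 in control muscle. Of the 5, 4 passed the filter through DTG libraries alone, as did 4 of the 6 neutrophil genes called higher and 3 of the 5 dendritic cell genes called higher, so these counts were in part built in. Neutrophil markers were called higher for 6 of the 7 tested of 12 measured, with a summed signal of 1963 to 3860 against 263 to 378. Csf3r (4.63) and S100a8 (3.47) led that list, while the granule genes Ngp, Elane and Mpo were at 0 in all controls and at most at 7.52 in a DTG mouse. The dendritic cell list had 5 of 8 genes called higher, led by Itgax (5.58), which macrophages also make, with a summed signal of 1799 to 3958 against 519 to 708. Its markers Xcr1 (1.29) and Itgae (1.04) were not called, and neither was Zbtb46 (-0.35, adjusted p = 0.024, limma), a factor of conventional dendritic cells, whose signal was 296 to 338 in the DTG mice and 377 to 436 in the controls. How much each of these cell types contributed to the receptor transcripts was not tested.

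Mast cell genes were called in 0 of 6 by limma, with 3 of 6 at an unadjusted p under 0.05, log2 fold changes of 0.44 to 1.25 and a summed signal of 913 to 2131 against 501 to 1358. T cell markers rose in 2 of 4 tested, B cell markers in 1 of 1 tested and NK cell markers in 1 of 3 tested, where all 4 T cell and all 3 NK cell genes tested passed the filter through DTG libraries alone, with sums of at most 555, 170 and 178 in a DTG mouse. In the endothelial list 1 of 6 genes fell, Kdr by 1.05, and none rose. Fibroblast genes rose in 4 of 5, led by Pdgfra (1.60) by p, satellite cell genes in 1 of 4 (Vcam1, 2.17), and among 8 myofibre genes Ckm fell by 1.93, Ttn fell by 1.63, Tnnt3 fell by 1.95 and none rose. The call was lost for Kdr without mouse 307 (-0.97), for Vcam1 without mouse 281 (2.14) and for Tnnt3 without any of 5 mice (-2.23 to -1.80 with 1 mouse left out).

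**Figure D5:**
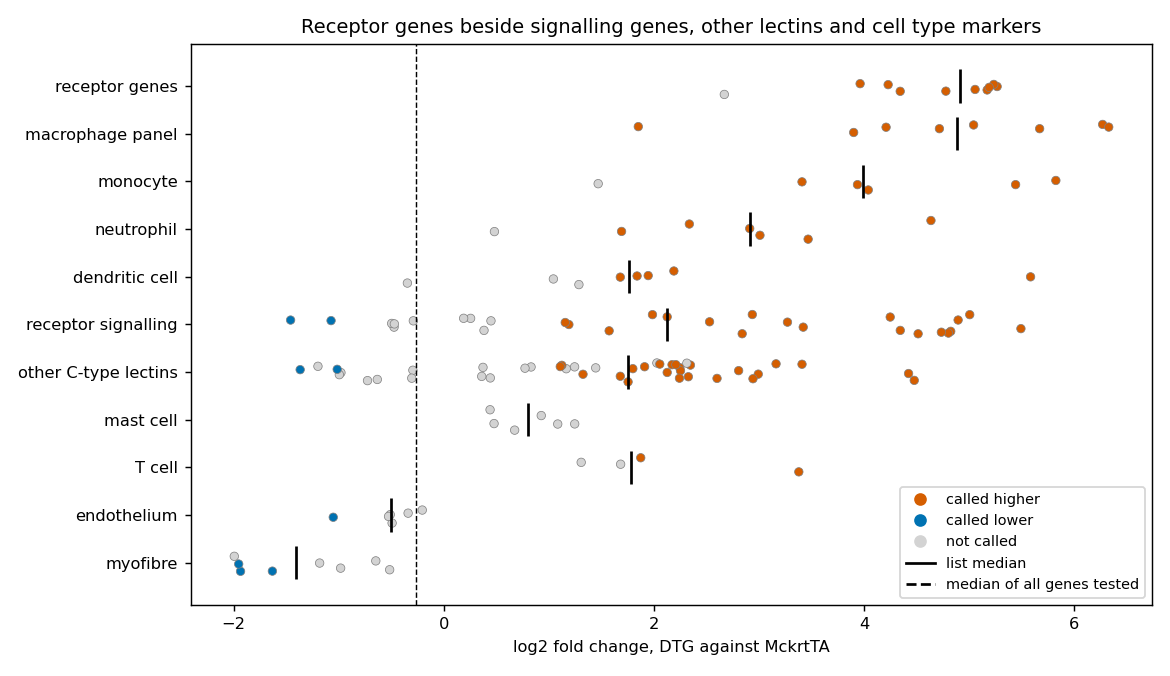
Log2 fold change of each tested gene by list, with a black bar at the list median and a dashed line at the median of all genes tested, -0.26. Orange points were called higher, blue lower and grey neither. The median is 4.92 for the receptor genes, 4.88 for the macrophage panel, 2.12 for the signalling genes and 1.75 for the other lectins.

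The genes whose pattern was most like the mean profile of the members over the 8 libraries were Nckap1l, Plekho2, C3ar1, Arap1 and Ptprc, with Pearson correlations of 0.9996 to 0.9990. The 8 points fall into the 2 groups, so these values mostly restate the difference between them. Nckap1l, which encodes a blood cell regulator of actin, went from a mean of 179 to 6771, and Ptprc, the leukocyte antigen CD45, from 167 to 4764. With each group centred on its own mean, the closest were Cmah (0.996), Mdfic, Adamtsl3, Pofut2 and Ndn (0.990), each lowest in mouse 253 among the DTG mice. All of these correlations share the libraries and their depth, and no test was made of them.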

How the data were processed

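PolyA-selected RNA of the gastrocnemius of 8 mice was sequenced, 4 DTG and 4 MckrtTA. The authors mapped the reads to mm10 transcripts with RSEM (the submitters' notes also name BWA) and deposited a signal for each gene, an RSEM estimate scaled so that the 75th percentile is 1000 in each library. Of the low values, 86.7% to 88.1% came within 0.1 of whole reads, so the table as a whole was not turned back into reads and no count test was run. The reads of Clec4d and Clec4e, whole in all 8 libraries, were used for ratios with an exact counting interval. The value of 1 read was taken as the most frequent value above 0. A gene listed at 0 allows up to 3 reads, a signal of 3.76 to 5.05 in DTG and 6.74 to 8.90 in MckrtTA libraries, for counting error only.

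Groups came from the genotype label and lanes from the run names. Genes that reached a signal of 25 in at least 3 libraries, 15073 in all, entered a limma fit (version 3.58.1, R 4.3.3) of log2(signal + 10) on group, whose variances followed a trend of the mean. A call required a fold of at least 2 and an adjusted p (Benjamini-Hochberg, over all genes tested) under 0.005. A second fit first subtracted the mean log2 of 8 macrophage genes in each library. The method was tested on simulated data. The labels name the mice as separate animals. Signal per kb used the length of the RefSeq transcript listed for the gene.

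The text names all members, any gene of the signalling and lectin lists, and of each marker list the 4 with the smallest adjusted p, those called lower and the defining markers at 0. Some genes that this rule takes are left out of the text. The members and lists were chosen with earlier results of these data known. The reads of Clec4d, Clec4e and Clec10a were looked at more closely after their values were seen. Alternatives changed the amount added, the filter, the scaling, the lanes, the variance trend, the thresholds, the panel and the mice used. The scaling was changed in the fit between the groups only. Deposited sheets other than the annotated gene table were not used, and 0 columns of libraries were left unused.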

Additional observations from a re-analysis of the deposited data

Results flagged for a closer look

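Over the 20 groups of 4 mice formed by the 10 receptor genes, 2 held a mouse that lay far from the other 3 by Dixon's test, where chance flags about 1 in 20. Clec4d had a signal of 121.554 in DTG mouse 306, against 447 to 466 in the other DTG mice. Clec4e had a signal of 2.2472 in MckrtTA mouse 280, which is a single read, against 0 in the other controls. Where the other 3 values are 0, any value above 0 is flagged. The flag of Clec4e was thus fixed by the floor, and the rate of 1 in 20 does not apply to it.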

How the results depend on the processing

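The count of members called higher, 9 of 10, was 9 or 10 under every alternative but lane 1 alone, where it was 2. Without 1 mouse it was 9 to 10, and 0 members were called lower throughout. All fold changes of the members between the groups kept their sign. Clec10a was called under each other scaling, at 3.60 (equal totals), 2.92 (trimmed mean) and 2.96 (median of ratios). These shift the median of all genes by 0.92, 0.25 and 0.28. Of all calls, those higher made up 47.9% on the deposited scale and 93.9%, 65.4% and 68.0% under these, with 4640 higher and 301 lower genes under equal totals.

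Relative to the macrophage panel, 1 member was called lower in the main analysis, where 97.1% of all genes tested were called lower. With 50 added 4 members were called lower, within lane 1 or lane 8 alone 0, and without any 1 mouse 1. The shares of all genes under these alternatives are not given here, so these counts are not read as a result about the receptors. With 50 added the differences turned to -0.049 for Clec4a2, -0.10 for Clec4a3, -1.46 for Clec4d, -0.70 for Clec4n and -0.036 for Clec12a. That of Clec4d was -0.97 in lane 8 alone, -0.53 to 0.57 without 1 mouse (the lowest without mouse 253, and -0.10 without mouse 281), and -0.093 with a panel of 3 genes. That of Clec4e was -1.20 without mouse 253, 2.21 with 1 added and 0.36 in lane 1 alone. It was 1.52 with 1 added and without mouse 253, an alternative chosen after seeing the data. Clec5a turned to 0.25 with 1 added and 0.0073 with 1 added and without mouse 253. The causes were not tested.

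Of the signalling genes, 18 to 19 were called higher without 1 mouse and 2 in lane 1 alone. Their count called lower was 0 with equal totals or in lane 1 alone, 1 with a trimmed mean or a median of ratios, and 5 at an adjusted p of 0.05 with no fold minimum. Of the other lectins, 13 were called higher with a minimum signal of 100, where 26 are tested, 1 in lane 1 alone, and 18 to 29 without 1 mouse. Those called lower were 1 with 1 or 50 added, with a minimum signal of 100, with a trimmed mean, with a median of ratios or with lane as a covariate, 0 with equal totals or in lane 1 alone, 4 at an adjusted p of 0.05, and 1 to 2 without 1 mouse. No paired analysis was possible because the labels do not say which control was the littermate of which DTG mouse. The labels give no replicate numbers either, and those used here only name the mice in order of their accession. Depth limits Clec4d and Clec4e in control muscle, where 4 reads and 1 read were counted.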
